A study of Homo sapiens with 6 samples.

Results

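The 9 genes are MDM2, MDM4, PHLDA3, TP53INP1, ZMAT3, BTG2, GADD45A, TIGAR and FDXR. They comprise the MDM family regulators of p53 and a set of p53 targets with roles in growth arrest, stress signalling and metabolism. They were chosen by symbol, with earlier results of these data known, and all 9 were found among the 17153 genes of the files. Each was above 1 FPKM in every library (lowest value 1.88), so all entered the test of the 11655 genes with at least 1 FPKM in at least 3 of the 6 libraries. FPKM is a fragment count corrected for gene length and library size. The files list them under the Entrez identifiers 4193 (MDM2), 4194 (MDM4), 23612 (PHLDA3), 94241 (TP53INP1), 64393 (ZMAT3), 7832 (BTG2), 1647 (GADD45A), 57103 (TIGAR) and 2232 (FDXR).

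RNA came from SNU449, an established human hepatocellular carcinoma line, grown in RPMI-1640 with fetal bovine serum. One group of 3 libraries (siControl) received a control small interfering RNA for 48 h, and the other group of 3 (siOXTR) one against OXTR, the oxytocin receptor gene. Both groups were therefore transfected, and no untransfected cells were analysed here. The siRNA sequences, and whether siOXTR was 1 siRNA or a pool, are not known from the labels. The labels do not say whether the libraries of a group were separate cultures, so every p-value rests on a spread between libraries that may be no more than technical.

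p53 is a transcription factor that is kept scarce in unstressed cells. MDM2 attaches ubiquitin to it and MDM4 masks its activating domain, and MDM2 is itself a p53 target, which closes a feedback loop. When DNA damage or other stress frees p53, it raises a set of genes that halt the cell cycle, repair DNA or alter metabolism. Several of these genes also answer to other stress factors, such as ATF4 and CHOP of the integrated stress response or AP-1, so a rise in one target is not by itself a reading of p53. The files hold RNA levels only, and the activity of p53 was not measured.

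RefSeq promoter windows of GRCh38.p14, from 250 bases before to 50 after an annotated start, were at hand for 6 of the 9 genes and numbered 11. They are shown for MDM2, whose feedback by p53 acts through the downstream of its promoters, and for FDXR, the other gene with a close match to the p53 consensus. That consensus consists of 2 adjoining half-sites of 10 bases, and capitals mark each stretch that fitted at least 17 of its 20 positions. It is its own reverse complement, so a search of 1 strand covers both.
MDM2, upstream start (chr12:68807922-68808221, plus strand): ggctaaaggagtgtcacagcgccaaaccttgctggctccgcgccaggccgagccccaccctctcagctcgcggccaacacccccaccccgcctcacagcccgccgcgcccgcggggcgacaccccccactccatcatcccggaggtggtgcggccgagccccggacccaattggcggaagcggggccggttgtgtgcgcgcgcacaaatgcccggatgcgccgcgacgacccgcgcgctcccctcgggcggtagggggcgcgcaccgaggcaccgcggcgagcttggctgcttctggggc
MDM2, downstream start (chr12:68808767-68809066, plus strand): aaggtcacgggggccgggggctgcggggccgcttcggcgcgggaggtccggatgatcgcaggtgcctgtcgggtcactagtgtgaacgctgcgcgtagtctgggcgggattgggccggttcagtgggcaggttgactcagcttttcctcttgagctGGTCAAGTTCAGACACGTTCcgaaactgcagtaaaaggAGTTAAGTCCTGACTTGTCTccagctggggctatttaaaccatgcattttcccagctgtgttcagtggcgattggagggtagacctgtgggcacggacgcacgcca
FDXR, upstream start (chr17:74872945-74873244, minus strand): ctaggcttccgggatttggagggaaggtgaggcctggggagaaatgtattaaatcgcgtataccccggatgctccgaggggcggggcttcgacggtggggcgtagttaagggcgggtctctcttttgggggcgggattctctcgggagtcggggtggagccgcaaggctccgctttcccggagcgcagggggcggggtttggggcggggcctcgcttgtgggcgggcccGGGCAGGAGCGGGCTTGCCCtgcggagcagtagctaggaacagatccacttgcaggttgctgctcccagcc

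The downstream MDM2 window held 2 such stretches. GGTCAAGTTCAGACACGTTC, beginning 94 bases before the start, fitted 18 positions, and AGTTAAGTCCTGACTTGTCT, beginning 56 bases before it, fitted 17. In GENCODE release 29 this window lay whole within intron 1 of all 4 basic protein-coding MDM2 transcripts that span it, 845 bases downstream of the first window. A further RefSeq window that overlaps it held the same pair. The upstream window had no stretch above 15 positions. In FDXR, GGGCAGGAGCGGGCTTGCCC began 21 bases before the start and fitted 17. The best stretches in the windows of MDM4, ZMAT3, BTG2 and TIGAR fitted between 14 and 16. Of all 35114 promoter windows, 5.2% held a stretch of at least 17 positions and 0.649% one of at least 18.

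The same windows were searched on both strands for the AP-1 motif TGANTCA and for the composite C/EBP-ATF motif TGATGNAA, through which ATF4 and CHOP act. AP-1 letters occurred in the downstream MDM2 window, 118 bases before the start and without overlap with the p53 stretches, and in 7.71% of all windows. The composite motif was in none of the 11 windows and in 3.62% of all. A match of letters is a description of sequence. The FPKM values are per gene, so transcripts from the upstream and downstream MDM2 starts cannot be told apart in them.

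The siRNA target was reduced in all 3 siOXTR libraries. OXTR measured 26.5, 26.6 and 24.6 FPKM under siControl and 6.03, 6.11 and 6.14 FPKM under siOXTR, and its mean was 4.24-fold lower (log2 change -1.92, SE 0.042, adjusted p = 3.45e-11). Library sums ran from 412464 to 429456 FPKM. Correlations of log2 values over genes, which are not independent replicates, were 0.997 to 0.998 within groups and 0.922 to 0.923 across them. Of 7 hepatocyte markers measured 1 reached 1 FPKM in any library, and the summed level of all 7 was 1.61 to 2.0 FPKM in siControl and 1.15 to 1.26 in siOXTR, while the sum of 4 epithelial markers was 124 to 128 FPKM and 170 to 174 FPKM. Of these KRT8 and KRT18 averaged 42.5 and 82.9 FPKM in siControl and 54.3 and 117 FPKM in siOXTR, whereas CDH1 averaged 0.277 and 0.167 FPKM and EPCAM 0.207 and 0.247 FPKM. Markers of other cell types were looked at too. The sum of 3 fibroblast markers, mostly COL1A2, was 102 to 104 FPKM in siControl and 27.3 to 28.7 in siOXTR. That of 3 endothelial markers, none of which reached 1 FPKM in any library, was 0.27 to 0.32 and 0.16 to 0.24. The sum of 2 leukocyte markers was 6.20 to 7.31 FPKM and 10.4 to 12.5 FPKM. CD68 averaged 5.99 and 10.7 FPKM, but PTPRC, whose mean was lower in siOXTR, 0.817 ± 0.181 and 0.513 ± 0.211 FPKM (SD). None of these markers was at 0 throughout, and their part in the changes of the 9 genes was not tested. In such bulk RNA, fewer cells that express a gene and less of its RNA per cell cannot be told apart.

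All 9 genes passed the threshold of an adjusted p of 0.05, 6 of them higher and 3 lower in siOXTR (limma, two-sided, with Benjamini-Hochberg adjustment over all genes tested). MDM2, MDM4, PHLDA3, TP53INP1, BTG2 and GADD45A rose 1.33-fold to 1.99-fold, and ZMAT3, TIGAR and FDXR were 1.33-fold to 1.68-fold lower. Across the transcriptome 82.5% of the genes tested passed, 37.7% higher and 44.8% lower, so a member that passes is not unusual here. The libraries of the groups overlapped in none of the 9, and in all genes tested the groups were separate in 83% of cases. The median size of the log2 change, either way, was 0.57 in the 9 genes and 0.37 in all genes tested. The 9 genes were chosen with earlier results of these data known, so neither their counts nor this median is independent evidence. None of the 9 changed by 1 or more on the log2 scale, whereas 11.5% of all genes tested had a difference of that size. The log2 change is the difference of group means of log2(FPKM + 1) and understates changes at low levels.

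**Figure D1:**
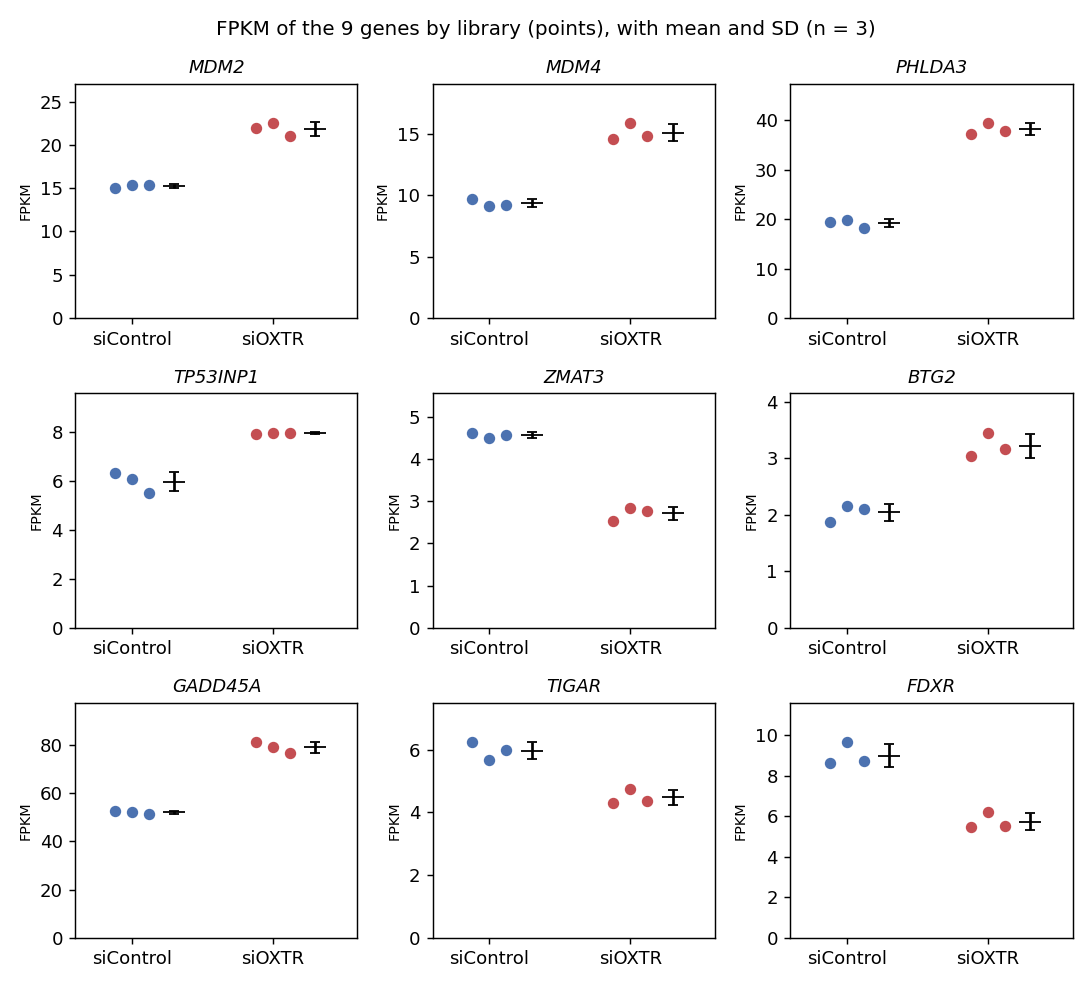
FPKM (vertical axes, each from 0) of each of the 9 genes in the 3 siControl (blue) and 3 siOXTR (red) libraries, 1 point per library, with the group mean and SD beside the points. In 6 panels every red point lies above every blue one, and in those of ZMAT3, TIGAR and FDXR below.

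The MDM genes rose together. MDM2, which encodes the ubiquitin ligase that marks p53 for destruction, measured 15.0, 15.3 and 15.4 FPKM under siControl and 21.9, 22.6 and 21.01 FPKM under siOXTR. Every siOXTR library lay above every siControl library, by at least 5.62 FPKM. The means were 15.2 ± 0.216 and 21.8 ± 0.784 FPKM (SD, n = 3 each), a 1.43-fold higher level (log2 change 0.49, SE 0.037, adjusted p = 4.18e-07).

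MDM4 encodes the relative of MDM2 that holds p53 inactive and is less widely counted as a p53 target. Its level was 9.71, 9.13 and 9.16 FPKM in siControl and 14.6, 15.9 and 14.8 FPKM in siOXTR, again without overlap. With means of 9.33 ± 0.327 and 15.1 ± 0.705 FPKM, it rose 1.62-fold (log2 change 0.64, SE 0.046, adjusted p = 2.82e-07). The ratio of MDM2 to MDM4 FPKM was 1.54, 1.68 and 1.68 in the siControl libraries and 1.51, 1.42 and 1.42 in the siOXTR libraries. The lowest siControl ratio thus lay just above the highest siOXTR one. The log2 ratio differed by -0.17 (two-sided exact permutation p = 0.1, which is the smallest p that 3 against 3 libraries can give).

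Of the growth arrest genes, GADD45A had the highest level of the 9. Its product binds the replication clamp and a mitotic kinase and activates stress kinases. It measured 52.5, 52.4 and 51.2 FPKM under siControl and 81.1, 79.4 and 76.7 FPKM under siOXTR, so the groups were 24.2 FPKM apart at their nearest. Its mean rose from 52.0 ± 0.713 to 79.1 ± 2.25 FPKM, or 1.52-fold (log2 change 0.59, SE 0.029, adjusted p = 1.26e-08).

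BTG2, whose product slows proliferation by bringing the deadenylase complex to mRNAs, had the lowest siControl level of the 9. Its values were 1.88, 2.16 and 2.10 FPKM in siControl and 3.05, 3.46 and 3.16 FPKM in siOXTR. The nearest libraries of the groups were 0.89 FPKM apart, and at this level the variation within a group was the widest in siControl, with a coefficient of variation of 7.20%. Its means were 2.05 ± 0.147 and 3.22 ± 0.212 FPKM, a rise of 1.57-fold (log2 change 0.47, SE 0.067, adjusted p = 6.86e-05).

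PHLDA3, which encodes a small lipid-binding protein that competes with the kinase AKT at the membrane, had the largest log2 change and ratio of the 9. It measured 19.4, 19.8 and 18.3 FPKM under siControl and 37.2, 39.5 and 37.7 FPKM under siOXTR. The group means were 19.2 ± 0.782 and 38.1 ± 1.19 FPKM (log2 change 0.96, SE 0.038, adjusted p = 2.89e-09). Even so, 5.28% of all genes tested had a larger rise.

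TP53INP1 encodes a stress-induced cofactor of p53 that also takes part in autophagy. It measured 6.30, 6.08 and 5.52 FPKM under siControl and 7.90, 7.97 and 7.95 FPKM under siOXTR. The siOXTR libraries were almost level with each other, and all lay above the siControl libraries. The means of 5.97 ± 0.402 and 7.94 ± 0.0361 FPKM gave a rise of 1.33-fold (log2 change 0.36, SE 0.053, adjusted p = 8.52e-05), and 22.6% of all genes tested had a larger one.

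The 3 genes that fell encode an RNA-binding protein and 2 metabolic enzymes. ZMAT3, a zinc finger protein that binds mRNAs and alters their stability and splicing, measured 4.63, 4.50 and 4.58 FPKM under siControl and 2.54, 2.84 and 2.76 FPKM under siOXTR. Its siControl values were tightly grouped, and each siOXTR value was well below them. The level was 1.68-fold lower, with means of 4.57 ± 0.0656 and 2.71 ± 0.155 FPKM (log2 change -0.59, SE 0.057, adjusted p = 3.14e-06).

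FDXR encodes the mitochondrial reductase that passes electrons from NADPH to ferredoxin. It measured 8.63, 9.65 and 8.71 FPKM under siControl and 5.48, 6.21 and 5.50 FPKM under siOXTR. In both groups the library numbered 2 was the highest, and the groups stayed 2.42 FPKM apart. FDXR was 1.57-fold lower, with means of 8.997 ± 0.567 and 5.73 ± 0.416 FPKM (log2 change -0.57, SE 0.061, adjusted p = 6.85e-06). The direction was opposite to that of MDM2, the other gene with a close match to the p53 consensus in the sequences above. Any part of these stretches in the change of either gene was not tested.

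TIGAR, which encodes a phosphatase that slows glycolysis and favours the pentose phosphate pathway, measured 6.24, 5.69 and 5.99 FPKM under siControl and 4.31, 4.76 and 4.38 FPKM under siOXTR. No library of one group overlapped the other, with 0.93 FPKM between the nearest. Its mean was 1.33-fold lower (5.97 ± 0.275 against 4.48 ± 0.242 FPKM, log2 change -0.35, SE 0.056, adjusted p = 0.000181).

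**Figure D2:**
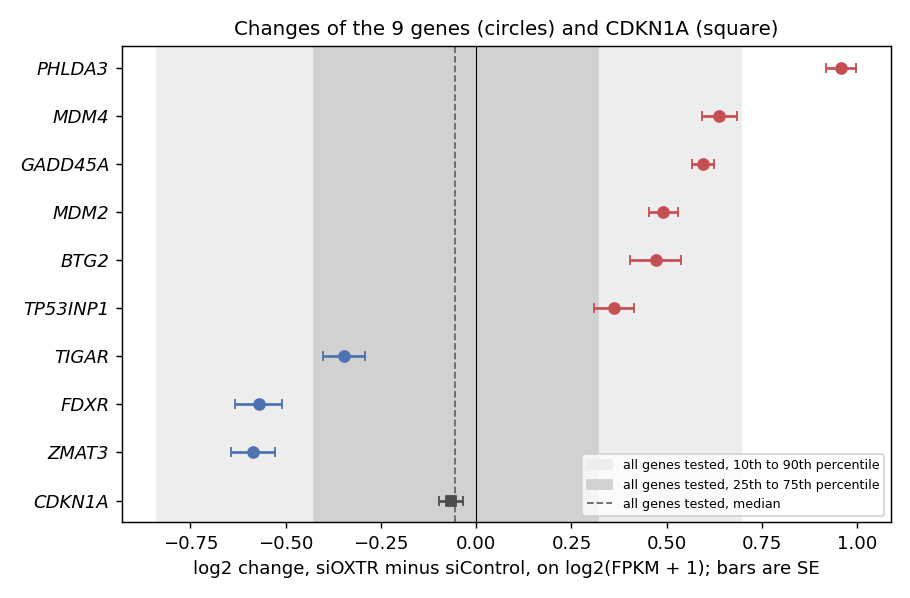
Log2 change (horizontal axis, siOXTR minus siControl, on log2(FPKM + 1)) of the 9 genes (circles, red higher and blue lower) and of CDKN1A (square), with SE bars. Shaded bands span the 25th to 75th (-0.43 to 0.32) and the 10th to 90th percentile (-0.84 to 0.69) of all genes tested. PHLDA3 alone of the 9 lies outside the wider band.

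FPKM is scaled to length, so the levels of the 9 genes can be ordered. In siControl the order was GADD45A, PHLDA3, MDM2, MDM4, FDXR, TIGAR, TP53INP1, ZMAT3 and BTG2. MDM4 and FDXR overlapped between libraries there, as did TIGAR and TP53INP1, and no other neighbours did. In siOXTR the order became GADD45A, PHLDA3, MDM2, MDM4, TP53INP1, FDXR, TIGAR, BTG2 and ZMAT3, with no overlap between neighbours. TP53INP1 had thus passed FDXR and TIGAR, and BTG2 had passed ZMAT3. GADD45A was above 87.0% of all genes tested in siControl and above 92.2% in siOXTR, and BTG2 above 7.78% and 16.1%. Within a group the coefficient of variation of the 9 genes ran from 0.454% to 7.26%.

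CDKN1A, which encodes the cyclin-dependent kinase inhibitor p21 and is the best known arrest gene under p53, measured 53.03, 55.3 and 53.1 FPKM under siControl and 49.5, 51.7 and 52.9 FPKM under siOXTR. The nearest libraries of the groups were 0.18 FPKM apart. Its log2 change of -0.07 (SE 0.032) did not pass (adjusted p = 0.0796), and it turned to 0.013 under median-ratio scaling and had an adjusted p of 0.0463 without siOXTR library 3.

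Paralogs of the 9 genes went in both directions, and members of a family often parted. GADD45B, the stress-inducible relative of GADD45A, measured 14.8, 15.9 and 15.1 FPKM under siControl and 11.8, 11.4 and 10.9 FPKM under siOXTR. It was 1.34-fold lower (log2 change -0.40, adjusted p = 7.89e-06) where GADD45A rose. The ratio of GADD45A to GADD45B FPKM was therefore 3.54, 3.30 and 3.39 in the siControl libraries and 6.90, 6.97 and 7.02 in the siOXTR libraries. The groups lay far apart (log2 difference 1.03, two-sided exact permutation p = 0.1, the smallest possible). GADD45G stayed at or below 0.45 FPKM in every library and was not tested.

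**Figure D3:**
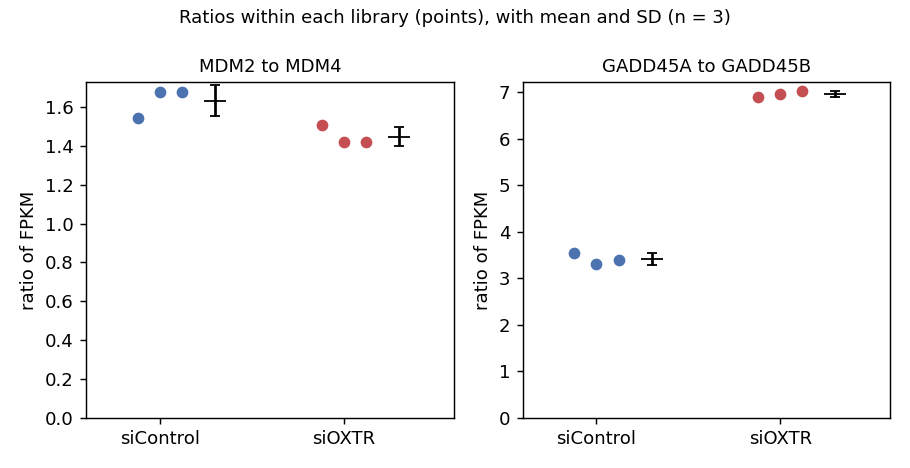
Ratio of MDM2 to MDM4 FPKM (left) and of GADD45A to GADD45B FPKM (right) in each library (points, blue siControl and red siOXTR), with mean and SD (n = 3) and axes from 0. The MDM ratio averaged 1.63 in siControl and 1.45 in siOXTR, and the GADD45 ratio 3.41 and 6.96.

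All 5 tested genes of the BTG and TOB family, which share the antiproliferative domain of BTG2, passed as higher. For these and the other small families, the background is that 82.5% of all genes tested passed, 37.7% as higher and 44.8% as lower. BTG1 had a larger change than BTG2, with 5.73, 5.91 and 5.68 FPKM in siControl and 19.8, 19.1 and 20.6 FPKM in siOXTR, a 3.43-fold rise (adjusted p = 1.29e-10). TOB2 rose 1.92-fold and BTG3 1.495-fold. TOB1 passed narrowly (log2 change 0.13, adjusted p = 0.0422), its groups overlapped, and it missed the threshold in 6 of the other settings, with an adjusted p from 0.0599 to 0.162. Its log2 change was 0.083 without siControl library 1 and 0.21 under median-ratio scaling. All 3 PHLDA genes were higher as well, PHLDA1 by 1.82-fold (adjusted p = 2.78e-10) and PHLDA2, an imprinted gene, by 1.37-fold (adjusted p = 3.43e-07).

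TP53INP2, an autophagy gene related to TP53INP1, went the other way and was 1.64-fold lower (12.3 ± 0.732 against 7.54 ± 0.332 FPKM, adjusted p = 8.12e-07). Of the ZMAT genes tested beside ZMAT3, ZMAT2 had a log2 change of -0.06 and ZMAT5 of 0.04, and neither passed (adjusted p = 0.127 and 0.518). ZMAT2 turned to 0.022 under median-ratio scaling. The ferredoxin genes FDX1 and FDX2, whose products receive electrons from FDXR, rose 1.21-fold and 1.26-fold (adjusted p = 0.00157 and 0.00716) where FDXR fell. FDX2 was at 6.83 FPKM in siControl library 1 and at 9.19 and 8.76 FPKM in the others, and its log2 change of 0.31 became 0.19 without library 1 (adjusted p = 0.00848).

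TIGAR resembles the bisphosphatase domain of the PFKFB enzymes, which set the level of a sugar phosphate that activates glycolysis. PFKFB3 was 2.18-fold lower and PFKFB4 4.49-fold lower, the latter at 19.7, 20.4 and 20.3 FPKM in siControl and at 4.96, 4.19 and 4.31 FPKM in siOXTR. PFKFB2 rose 1.43-fold (adjusted p = 9.58e-06). Of the 3 PFKFB genes tested, 1 was thus higher and 2, like TIGAR, were lower. BTG4, ZMAT1, ZMAT4 and PFKFB1 were under the level required for the test.

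A longer list of 63 other p53 targets showed no common direction. It leaves out 10 targets with other known stress inputs, described below, of which 9 rose. That sorting was done with earlier results of these data known, so the counts and median of the longer list are not independent evidence. Of its 63 genes 60 were in the files and 47 were tested. Among them 16 were higher (34.0%, against 37.7% of all genes tested) and 24 lower (51.1%, against 44.8%), shares near the background, and the median log2 change was -0.13, against -0.06 in all genes tested. The 4 largest changes on the scale of log2(FPKM + 1) were all decreases, the last of them only just ahead of a rise (log2 change -1.06 for CYFIP2 and 1.06 for RAP2B), and by the ratio of means SESN1 had a larger fold than any of the 4. POLH, which encodes a DNA polymerase that bypasses ultraviolet damage, was 2.55-fold lower (15.0 ± 0.719 against 5.89 ± 0.394 FPKM, adjusted p = 6.69e-09). ACER2, a ceramidase gene, was 2.77-fold lower, FUCA1, a lysosomal fucosidase gene, 2.41-fold lower, and CYFIP2, whose product acts in actin regulation, 2.19-fold lower.

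Some of the most widely used p53 targets, chosen here after their values were seen, fell with ZMAT3 and FDXR. CCNG1 (cyclin G1) measured 155, 155 and 160 FPKM under siControl and 109, 110 and 108 FPKM under siOXTR, 1.44-fold lower. The repair gene DDB2 was 1.87-fold lower, the ribonucleotide reductase gene RRM2B 1.39-fold lower, and PPM1D, whose phosphatase turns p53 signalling off, 1.51-fold lower. SESN1 was 3.55-fold lower (1.92 ± 0.115 against 0.540 ± 0.0436 FPKM) and passed the filter on low values only through siControl, so it could enter the test only as lower. On the other side RAP2B rose 2.24-fold, ABHD4 2.12-fold and AEN, an exonuclease gene, 1.88-fold. Other widely used targets were higher as well: DRAM1 1.69-fold, TNFRSF10A 1.47-fold, XPC 1.21-fold, BAX 1.12-fold and TP53I3 1.10-fold. Of the 47 tested genes of the list 16 rose and 24 fell.

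Some p53 targets are also known to answer to ATF4, CHOP or AP-1. In a list of 10 such genes 9 rose (90%, against 37.7% of all genes tested) and CDKN1A did not pass, with a median log2 change of 2.13. A log2 change of 1 was reached by 7 of them. The 4 largest were GDF15, a secreted stress cytokine (log2 change 3.58), ATF3, a stress-induced transcription factor (3.53), SESN2, a stress-induced regulator of growth signalling (3.30), and DDIT4, an inhibitor of the same pathway (2.76). SESN2 measured 3.63, 3.66 and 4.27 FPKM under siControl and 44.6, 47.0 and 48.2 FPKM under siOXTR, whereas its paralog SESN1 was lower. Sorting genes into this list was done with earlier results of these data known, so neither its count nor the size of its changes is independent evidence, and its difference from the 9 genes was not tested.

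Genes of the integrated stress response, in a list kept apart from the p53 targets, were mostly higher too. The list was also chosen with earlier results of these data known, so neither its count nor the size of its changes is independent evidence. Of its 10 genes 9 rose (90%, against 37.7% of all genes tested) and ATF5 fell (log2 change -0.41), with a median log2 change of 2.53. DDIT3, the gene of CHOP, had a log2 change of 4.34, PPP1R15A of 3.62, TRIB3 of 3.30 and CHAC1, which encodes an enzyme that degrades glutathione, of 2.81. Of the 9 genes described here GADD45A is the one best known as a target of this response, and its log2 change of 0.59 was below that of 8 of the 10.

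**Figure D4:**
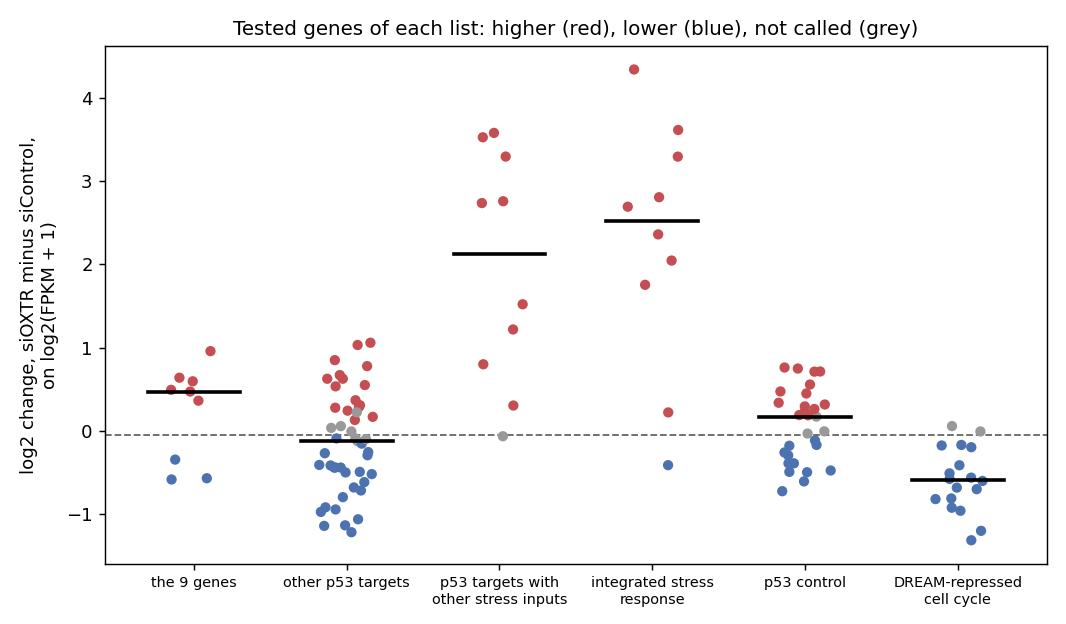
Log2 change (vertical axis, siOXTR minus siControl, on log2(FPKM + 1)) of each tested gene in 6 lists, with the median as a black bar and that of all genes tested as a dashed line. Red genes were higher, blue lower and grey not called. The 9 genes and the other p53 targets spread to both sides of the line, with medians of 0.47 and -0.13, and the medians of the 2 stress lists stand at 2.13 and 2.53.

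Genes that set the level or activity of p53 went both ways. Of 31 listed 29 were tested, of which 14 rose (48.3%) and 12 fell (41.4%), with a median log2 change of 0.17, and none changed by 1 or more on the scale of log2(FPKM + 1). The share that rose was above that of all genes tested (37.7%) and the share that fell was below it (44.8%). The median over all genes tested was -0.06. The list was chosen with earlier results of these data known, so neither its counts nor its median is independent evidence. TP53BP2, which encodes a protein that steers p53 toward apoptosis genes, rose 1.71-fold. RCHY1, which encodes another ubiquitin ligase for p53, rose 1.81-fold, from 5.00 ± 0.112 to 9.08 ± 0.0964 FPKM (adjusted p = 6.06e-08). CSNK1A1, whose kinase works with MDM4, rose 1.65-fold. TP73, a p53 family gene that can act on p53 targets, measured 2.21, 2.0 and 2.11 FPKM under siControl and 1.03, 0.74 and 0.87 FPKM under siOXTR. It passed the filter through siControl alone, and its log2 change was -0.73, or -1.18 with a pseudocount of 0.1 and -1.26 with one of 0.01. TP63 was between 0.19 and 0.41 FPKM and was not tested.

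Cell cycle genes repressed by the DREAM complex, which p53 engages through p21, were lower. In this list of 18, 16 fell (88.9%), none rose, and BIRC5 and CDC25C did not pass (median log2 change -0.59). RRM2 was 2.52-fold lower (126 ± 1.90 against 49.98 ± 1.08 FPKM, adjusted p = 2.03e-11), E2F1 2.39-fold lower, MCM5 1.998-fold lower and CDK1 1.91-fold lower. Over all genes tested 44.8% fell, with a median log2 change of -0.06. This list too was chosen with earlier results of these data known, so its count is not independent evidence. Any part of p53, p21 or the DREAM complex in these changes was not tested, and CDKN1A, the gene of p21, did not pass, as described above.

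The 5 genes whose centred log2 values over the 6 libraries lay nearest to those of MDM2 were NLE1, PYROXD1, ANKMY2, HBS1L and PRMT3, at Euclidean distances of 0.032 to 0.050. Each had a log2 change between 0.47 and 0.51. Of the other 8 genes BTG2 was nearest (distance 0.11, the 158th of all genes tested), then GADD45A (0.15), MDM4 (0.21), TP53INP1 (0.22) and PHLDA3 (0.58). The distance is a description over 6 libraries in 2 groups.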

How the data were processed

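The authors deposited FPKM values, per the file headers, with 1 column per library and 2 decimals. Libraries followed the BGISEQ-500 protocol, per the labels. Not given in the sources used here are the aligner, counting tool, build, annotation, strand setting and treatment of reads shared with pseudogenes. Depth is unknown: of 8878 low values, 19.8% lay within 0.1 of a whole multiple of the gene's lowest value above 0, against 20% for values spread evenly, so whole reads were not recovered by this check.

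Values were taken as log2(FPKM + 1). The 11655 genes with at least 1 FPKM in at least 3 of 6 libraries entered a linear model in limma 3.58.1 under R 4.3.3, with group as the factor, a mean-variance trend, two-sided tests and Benjamini-Hochberg adjustment over all genes tested. The fit was tested on simulated data. Folds are ratios of mean FPKM. Ratios within libraries were compared by exact permutation (scipy 1.17.1). The motif search used RefSeq windows and Python 3.11.15.

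One gene of the p53 lists is not reported here. The 9 genes and all lists were chosen with earlier results of these data known. Beside the 9 genes, OXTR, CDKN1A and the paralogs, the text names the 4 genes of each list with the largest absolute log2 change past the threshold, and the 5 nearest to MDM2. Others are said to be chosen after their values were seen or are named because they went against their list. Alternatives were pseudocounts of 0.1 and 0.01, median-ratio and quantile scaling, no filter on low values, a minimum of 5 FPKM, robust moderation, a replicate block and leaving out each library.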

Additional observations from a re-analysis of the deposited data

How the results depend on the processing

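The 9 genes kept their direction and their call in all 124 refits, with an adjusted p of at most 0.00147 (TIGAR under quantile scaling). BTG2 and ZMAT3 were below the 5 FPKM minimum and have no value there. Their log2 changes over these settings ran, for example, from 0.47 to 0.57 for MDM2, from 0.93 to 1.03 for PHLDA3 and from -0.75 to -0.45 for ZMAT3. Over all genes tested, which numbered 9393 to 17153 by setting, the counts ran from 3803 to 4902 higher and from 4241 to 5728 lower. Which direction held more genes depended on scaling. With the values as deposited 4395 were higher and 5218 lower, with quantile scaling 4788 and 4729, and with median-ratio scaling 4902 and 4593. Of 36 other genes refitted, which are those named by the rule, 33 kept direction and call in these refits, and the exceptions were CDKN1A, TOB1 and ZMAT2: CDKN1A was at 0.013 and ZMAT2 at 0.022 under median-ratio scaling. Without siOXTR library 3, CDKN1A passed as lower, so 1 gene of the list with other stress inputs fell, against 0 otherwise, and the number of fallen genes in that list ranged from 0 to 1 when single libraries were left out. The log2 difference of the MDM2 to MDM4 ratio ran from -0.21 to -0.15 and that of the GADD45A to GADD45B ratio from 1.01 to 1.06 with single libraries left out. Libraries with the same number did not deviate together (correlations over genes of -0.012, -0.073 and 0.039), so the numbers were not taken to pair them. With the replicate block 4388 genes were higher and 5205 lower, and of the 36 genes and the 9 TOB1 lost its call. Genes named outside the rule, such as CCNG1, DDB2 and ATF5, were not refitted one by one. Unknown depth limits the lowest levels most, such as BTG2.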
